A study of Homo sapiens with 9 samples.

Results

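The 9 genes described here were the proteases C1R and C1S, the central component C3 and its partner CFB, the fluid-phase regulators CFI and SERPING1, and the membrane regulators CD46, CD55 and CD59. They were found by name among the 38021 genes of the count table, and each had 1 row. They were chosen from results of these same libraries, so their levels and differences are given as a description, without p values. Where a member is said to be called or not called, at an adjusted p under 0.1, this describes the fit and is no support. For the other genes of the pathway, a textbook list drawn up with earlier results of these data known, adjusted p values over all genes tested are given.

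Complement is a set of plasma and cell surface proteins that mark cells and microbes for destruction. Its classical arm starts when C1q, which carries the proteases C1r and C1s, binds a target, so that C1r activates C1s and C1s cuts C4 and C2. All arms meet at C3, whose fragments are amplified through factor B and are destroyed by factor I with the help of cofactors such as CD46. The liver makes most of the plasma proteins, and renal tubular cells are known to make several of them, C3 among them.

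RNA came from 786-O, an established line of clear cell renal cell carcinoma (ccRCC) that has lost VHL and keeps HIF2α stable. The cells carried a control shRNA (shControl, genotype labelled WT), an shRNA against ARNT (shARNT) or an shRNA against BMAL1 (shBMAL1), each delivered by lentivirus. All 3 groups were selected with puromycin at 2.5 µg/mL for 1 week and were then kept at 1.25 µg/mL. There were 3 libraries per group, called biological replicates in the labels. Whether they came from separate infections was not given, so the errors measure the spread between these libraries. Each group is labelled with 1 shRNA. The paper's methods also list an independent shRNA against BMAL1, and the labels do not say which of them these libraries carry. An effect of the targeted gene and an effect of a hairpin alone cannot be told apart.

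The libraries held 33793045 to 35444735 reads. ARNT was lower in shARNT than in shControl by a log2 fold change of −0.94 and BMAL1, named ARNTL in the table, was lower in shBMAL1 by −1.23, with adjusted p values of 8.81e-35 and 2.51e-25 (DESeq2). The other target was also lower in each knockdown, with −0.23 for ARNT in shBMAL1 (adjusted p 0.0187) and −0.26 for ARNTL in shARNT (adjusted p 0.0294). Single libraries decided both of these calls. The first had an adjusted p of 0.162 without shControl replicate 2 and 0.109 without shBMAL1 replicate 2, and the second 0.15 without shControl replicate 2 and 0.22 without shARNT replicate 3. For protein the paper's immunoblot went the other way. It reports slightly more ARNT with BMAL1 depleted, and slightly more BMAL1 with ARNT depleted. All 7 renal epithelial and ccRCC markers were present. They summed to 138820 to 141186 normalised read counts (reads divided by a size factor per library) with shControl, 128706 to 131815 with shARNT and 112963 to 126579 with shBMAL1, which did not overlap. Most of the sum was VIM, with means of 97980, 86315 and 84876 in that order. Of the 7, 1 was higher and 3 lower in shARNT, beside 16.5% and 19% of all genes tested. In shBMAL1 2 were higher and 3 lower, beside 17.4% and 19.4%. The 2 that rose there were PAX2 (0.43, adjusted p 0.000193) and CA9 (1.05, adjusted p 2.15e-08), and PAX8 was among those that fell (−0.49, adjusted p 1.71e-11). In shARNT CA9 fell (−2.85, adjusted p 6.93e-19), the largest change of the 7 markers in either knockdown. The part of these differences in the results below was not tested. The 5 leukocyte markers summed to at most 28 and the 3 endothelial markers to at most 8.95. CD3E and CDH5 were at 0 in all libraries. In such bulk RNA, fewer expressing cells and less RNA per cell cannot be told apart.

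Short stretches before the annotated starts of C1R and CFB are shown because both genes are known to respond to interferon and inflammatory signals. RefSeq promoter windows (GRCh38.p14) were at hand for 6 of the 9 genes, in 11 entries, and not for C1S, C3 and SERPING1. The 250 bases before each start were searched on both strands. Capitals mark the matches, which are letters in a window and not shown to be bound.

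CFB, chr6:31945945-31945974, plus strand, 150 to 121 bases before the start, with an interferon-stimulated response element core (GAAANNGAAA, here on the other strand): acttctgcagTTTCTGTTTCcttgactggc

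CFB, chr6:31945983-31946011, plus strand, 112 to 84 bases before the start, with an NF-kB motif and then a gamma-activated site (GAS, TTCNNNGAA): GGGGCCCTCCcgcttggatgTTCCGGGAA

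C1R, chr12:7091961-7091990, minus strand, 97 to 68 bases before 1 of its starts, with a GAS: agccagtcctaTTCCTGGAAggggagggga

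The interferon-stimulated response element core was found in 3.02%, the NF-kB motif in 9.96% and the GAS in 6.57% of all 35116 windows. Beyond those shown, a GAS was found in windows of CD59. The core bound by HIF (ACGTG or GCGTG), present in 43.2% of all windows, was found for CD59 alone among the 6 genes. The E-box CACGTG, which contains that core and was present in 6.34% of windows, was found for none of the 6. It was found in both windows of C2.

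The proteases of the C1 complex act first in the pathway. C1S, which cuts C4 and C2 once activated, had 155, 153 and 105 normalised read counts in the shControl libraries, 593, 646 and 496 in shARNT, and 116, 93.7 and 77.4 in shBMAL1. All 3 shARNT libraries lay far above the other 6, and shBMAL1 overlapped shControl. The log2 fold change was 2.07 (SE 0.16) for shARNT against shControl, which is 4.21-fold, and −2.60 (SE 0.17) for shBMAL1 against shARNT. For shBMAL1 against shControl it was −0.53 (SE 0.23). That last difference passed the threshold with all 6 libraries and not without shControl replicate 1 (−0.44) or 2 (−0.45), or without shBMAL1 replicate 2 (−0.51) or 3 (−0.39). It was also lost with a replicate block (−0.52) and at an adjusted p of 0.05.

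C1R, the protease that activates C1s, had 193, 195 and 162 normalised read counts in shControl, 247, 308 and 209 in shARNT, and 339, 242 and 285 in shBMAL1. Both knockdown groups lay above shControl and overlapped each other. The log2 fold changes were 0.48 (SE 0.17) in shARNT and 0.65 (SE 0.17) in shBMAL1, with 0.18 (SE 0.17) between the knockdowns, not called. The first was not called without shControl replicate 3 (0.40) or shARNT replicate 2 (0.32).

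C1S and C1R are neighbours on chromosome 12 and point towards each other. On GRCh37, GENCODE places C1S at 7096351 to 7178336 on the plus strand and C1R at 7187513 to 7245203 on the minus strand, with 9176 bases between their ends. The reads of C1S divided by those of C1R in the same library came to 0.746 ± 0.0832 for shControl, 2.29 ± 0.169 for shARNT and 0.334 ± 0.0585 for shBMAL1 (SD, n = 3). These ratios did not overlap between any of the groups. They show unequal change of the neighbours and not which of them changed.

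The genes on either side are given for comparison. LPCAT3, a phospholipid acyltransferase gene that overlaps the long form of C1S on the other strand with 0 shared exon bases, was higher in shARNT (0.37, adjusted p 1.75e-11). It was not called in shBMAL1 (0.02, adjusted p 0.924), where the sign turned without shBMAL1 replicate 1 (−0.11). C1RL, a C1r-like protease gene that shares 672 exon bases with C1R, was higher in shBMAL1 (0.63, adjusted p 1.4e-10) and not called in shARNT (−0.11, adjusted p 0.476). Its counts were fractional in all 9 libraries and those of C1R in none, and how reads were shared out was not given.

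**Figure D1:**
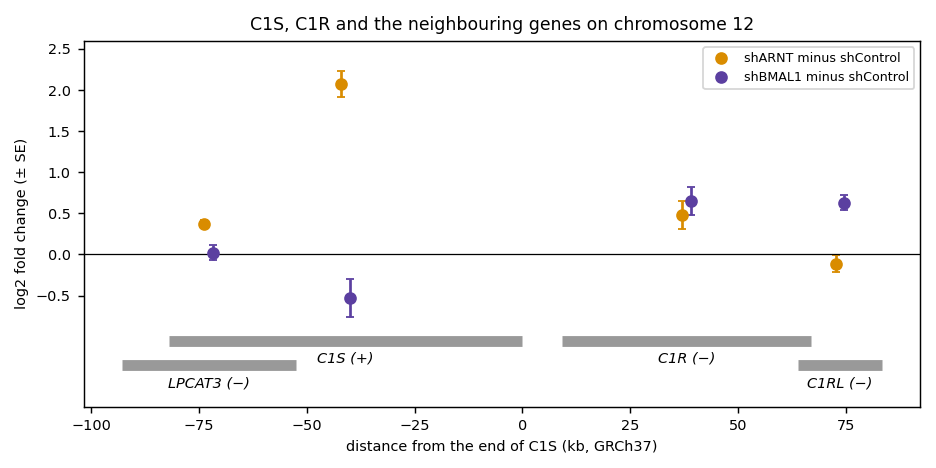
Log2 fold changes (y axis, points with ± SE) of C1S, C1R, LPCAT3 and C1RL at the middle of each gene, by distance in kb from the end of C1S (x axis). Grey bars span the genes, with the strand in brackets. C1S has the highest point in shARNT (2.07) and the lowest in shBMAL1 (−0.53).

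C3, the protein that the C3 convertases cut, had 806, 793 and 739 normalised read counts in shControl, 1851, 1643 and 1519 in shARNT, and 1517, 1513 and 1368 in shBMAL1. Each library of either knockdown lay above all shControl libraries. The log2 fold changes were 1.10 (SE 0.09) and 0.91 (SE 0.09), or 2.15-fold and 1.88-fold. Between the knockdowns the log2 difference was −0.19 (SE 0.09). It was not called with all 6 libraries, and passed the threshold with edgeR, TMM size factors, the count filter or all 9 libraries in 1 fit (−0.19 each), without shARNT replicate 3 (−0.26) and without shBMAL1 replicate 1 (−0.21).

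CFB supplies the protease of the alternative pathway convertase. It had 192, 294 and 212 normalised read counts in shControl, 259, 234 and 196 in shARNT, and 509, 457 and 360 in shBMAL1. The shARNT libraries lay within the range of shControl, and the shBMAL1 libraries lay above both groups. The log2 fold changes were −0.02 (SE 0.18) in shARNT and 0.92 (SE 0.17) in shBMAL1, and 0.94 (SE 0.16) between the knockdowns. The sign in shARNT turned without shControl replicate 2 (0.19) or shARNT replicate 3 (0.09). GENCODE places CFB on chromosome 6 at 31913427 to 31919863, plus strand, where it shares 24 exon bases with C2.

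Factor I, from CFI, cuts C3b and C4b when a cofactor holds them. CFI had 978, 971 and 744 normalised read counts in shControl, 1617, 1731 and 1620 in shARNT, and 3658, 3844 and 3446 in shBMAL1. The 3 groups did not overlap, with shARNT between the others. Its log2 fold changes were 0.89 (SE 0.10) in shARNT and 2.02 (SE 0.10) in shBMAL1, with 1.14 (SE 0.07) between the knockdowns. The change in shBMAL1 was 4.06-fold, the largest rise of the 9 genes there.

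SERPING1 encodes C1 inhibitor, which blocks C1r and C1s. It had 3, 7 and 10 reads in shControl, 0, 0 and 2 in shARNT, and 2, 0 and 4 in shBMAL1. A library with 0 reads could hold up to 3 by counting error. The gene was thus at the edge of detection in all 9 libraries, was left untested by the filter in 2 of the 3 comparisons and was not called in shBMAL1 against shControl. No fold change is given.

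**Figure D2:**
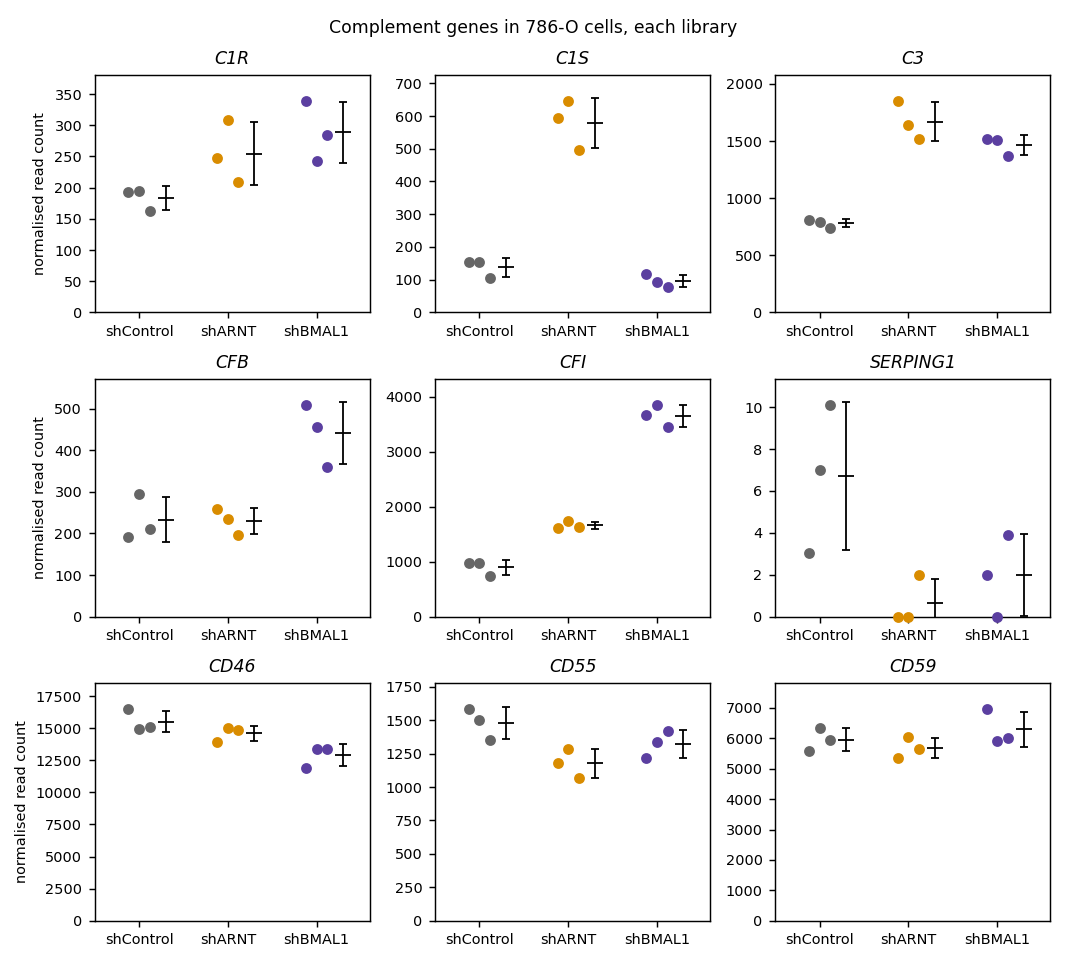
Normalised read counts (y axes, each from 0) of the 9 complement genes in each of the 9 libraries, with the mean and SD of each group in black. C1S is high in shARNT alone, CFB in shBMAL1 alone, C3 in both knockdowns, and CFI is highest in shBMAL1.

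The membrane regulators protect the cell's own surface, and their log2 fold changes stayed within −0.32 to 0.17 in the 3 comparisons. In shARNT CFB changed less than any of them (−0.02). CD46, a cofactor for factor I, had 16464, 14956 and 15127 normalised read counts in shControl, 13957, 15001 and 14840 in shARNT, and 11902, 13394 and 13386 in shBMAL1. The shBMAL1 libraries lay below the others. The log2 fold changes were −0.08 (SE 0.05) in shARNT, not called, and −0.27 (SE 0.07) in shBMAL1. The difference between the knockdowns, −0.18 (SE 0.07), was called with all 6 libraries and not without shARNT replicate 2 (−0.16), shARNT replicate 3 (−0.17) or shBMAL1 replicate 1 (−0.12). CD46 shares 797 exon bases with the non-coding gene MIR29B2CHG on the other strand, and whether the counting used strand was not given, so reads there cannot be told apart.

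CD55, which speeds the decay of C3 convertases, had 1581, 1503 and 1349 normalised read counts in shControl, 1177, 1288 and 1069 in shARNT, and 1215, 1337 and 1421 in shBMAL1. The shARNT libraries lay below all shControl libraries, with a log2 fold change of −0.32 (SE 0.09). In shBMAL1 the groups overlapped and no change was called (−0.16, SE 0.09), except without shControl replicate 3 (−0.22). Between the knockdowns no difference was called (0.17, SE 0.10), except without shBMAL1 replicate 1 (0.23).

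CD59 blocks the membrane attack complex. It had 5590, 6349 and 5938 normalised read counts in shControl, 5357, 6036 and 5643 in shARNT, and 6954, 5913 and 6010 in shBMAL1. All 3 groups overlapped. Its log2 fold changes were −0.07 (SE 0.06) and 0.08 (SE 0.08), and the sign of the second turned without shBMAL1 replicate 1 (−0.0015). The difference between the knockdowns, 0.15 (SE 0.08), was not called except without shBMAL1 replicate 2 (0.19).

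**Figure D3:**
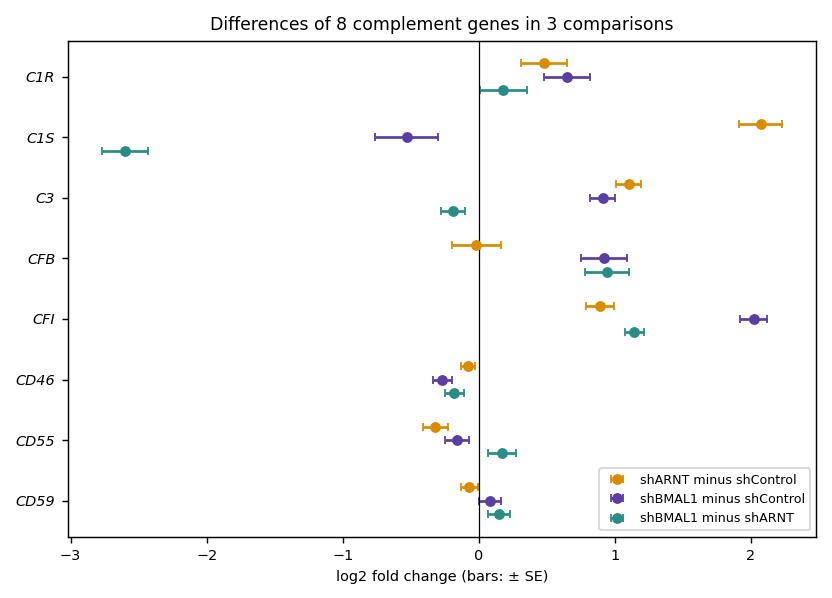
Log2 fold changes (x axis, points with ± SE) of 8 complement genes in the 3 comparisons. SERPING1 is left out for its low counts. C1S has the widest spread, from −2.60 between the knockdowns to 2.07 in shARNT, while CD46, CD55 and CD59 stay within −0.32 to 0.17.

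Levels of different genes can be set side by side only per length. In shControl, CD46 had 28.5 ± 1.85 counts per kilobase of exon, scaled to library size as in RPKM, and CD59 had 16.1 ± 0.847 (SD, n = 3). CFI followed with 4.81 ± 0.729 and CD55 with 4.11 ± 0.358, a pair that did not differ beyond its spread. C3 had 1.92 ± 0.0988. CFB with 1.25 ± 0.276 and C1R with 1.11 ± 0.116 were likewise within their spread, and C1S had 0.473 ± 0.0984. The membrane regulators CD46 and CD59 thus led the order and SERPING1, at 0.0264 ± 0.0139, ended it. In shBMAL1, CFI reached 20 ± 1.07 on this scale, beside 17.4 ± 1.31 for CD59 and 24.3 ± 1.99 for CD46. With the longest transcript as length, CD55 came before CFI in shControl (11.1 and 10.8) and C1R before CFB (2.47 and 1.60), so these orders depend on the gene model. On that length CFI in shBMAL1 had 45 ± 2.4, beside 23.8 ± 1.79 for CD59 and 48.1 ± 3.94 for CD46, so its distance from both depends on the gene model too.

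Counted over the 9 genes at an adjusted p under 0.1, 4 were higher and 1 lower in shARNT, beside 35.4% of all 15164 genes called in that comparison (16.5% higher and 19% lower). Of the 8 members tested there, 4 were higher and 1 lower by groups that did not overlap, beside 43.9% of all genes (20.9% and 23%). In shBMAL1 4 were higher and 2 lower, beside 36.8% of 19036 genes (17.4% and 19.4%). By groups that did not overlap it was 4 and 1 of 9 tested, beside 45.2% (22.3% and 22.9%). Between the knockdowns 2 were higher and 2 lower in shBMAL1, beside 35.3% of 18181 genes (17.3% and 18%). By groups that did not overlap it was 2 and 3 of 8 tested, beside 43.9% (22.2% and 21.7%). SERPING1, untested in shARNT, had no overlap with shControl there either and was lower, at the low counts given above. Because the 9 genes were chosen with such results known, nothing is read from these counts. Both knockdowns share the shControl libraries, so their differences from it are not independent of each other.

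The rest of the pathway was described with 50 further genes of the classical, lectin, alternative and terminal steps, regulators and receptors. Of these, 14 had 0 reads in all libraries and 29 had a mean under 10 normalised read counts in every group. In shARNT 5 were higher and 1 lower of 18 that could be tested. In shBMAL1 11 were higher and 1 lower of 24. Between the knockdowns 11 were higher in shBMAL1 and 0 lower of 23. Among all genes tested, 16.5%, 17.4% and 17.3% were called higher in these comparisons. The tested sets differ, and 6 fewer genes were tested in shARNT than in shBMAL1. One of the 11 called higher in shBMAL1 was VSIG4, a complement receptor with 0 reads in every shControl and shARNT library and 3, 4 and 6 reads in shBMAL1. It could be tested only through the group where it was present, so its call had to be a rise. Over the 18 genes tested in all 3 comparisons, 5 were higher and 1 lower in shARNT, 10 higher and 1 lower in shBMAL1, and 10 higher and 0 lower between the knockdowns. Their median log2 fold changes were 0.35, 0.79 and 0.70, beside 0.0028, 0.0153 and 0.0094 for all genes tested. Since this list too was drawn up with earlier results of these data known, its counts and medians are a description only.

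Of the 13 fluid-phase regulators listed, 3 rose of 5 tested in shARNT and 4 of 5 in shBMAL1, beside 16.5% and 17.4% of all genes called higher. CFHR3 encodes a plasma protein that binds C3 fragments and averaged 42.2 ± 14.4 normalised read counts with shControl, 98.3 ± 2.49 with shARNT and 200 ± 14.6 with shBMAL1 (SD, n = 3). It rose by 1.22 (SE 0.29, adjusted p 0.000164) and by 2.24 (SE 0.24, adjusted p 1.03e-18), and was higher in shBMAL1 than in shARNT by 1.02 (SE 0.18, adjusted p 3.88e-07). It belongs to a gene family with long shared stretches of sequence, so its counts are uncertain. CLU, encoding clusterin, which binds terminal complexes, had 1153, 1388 and 1120 normalised read counts in shControl, 1338, 1414 and 1327 in shARNT, and 2841, 2721 and 2230 in shBMAL1. The shBMAL1 libraries lay above the other 6. CLU rose in shBMAL1 (1.09, adjusted p 1.02e-23). It was not called in shARNT (0.16, adjusted p 0.17), except without shControl replicate 2 (0.26, adjusted p 0.015).

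C4 is the first substrate of C1s and is encoded by C4A and C4B. C4A had 61.4, 61 and 58.6 normalised read counts in shControl, 72.1, 68.7 and 69.6 in shARNT, and 272, 270 and 276 in shBMAL1. C4A rose by 2.17 (SE 0.19, adjusted p 6.58e-29) and C4B by 2.24 (SE 0.21, adjusted p 5.14e-24) in shBMAL1. Neither was called in shARNT (0.22, adjusted p 0.591, and 0.34, adjusted p 0.388). Between the knockdowns C4A differed by 1.96 (adjusted p 2.08e-25) and C4B by 1.90 (adjusted p 9.6e-20). The 2 genes are near-identical in sequence and their ratio of reads stayed near 1 (1.13 ± 0.192, 1.02 ± 0.0631 and 1.08 ± 0.173 by group), so their counts cannot be told apart. C2, the next substrate and the neighbour of CFB, had means of 22.5, 37.7 and 31.1 counts and was not called in either knockdown (0.75, adjusted p 0.19, and 0.47, adjusted p 0.489).

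Other steps gave single genes. MBL2, the mannose-binding lectin that starts the lectin pathway, rose from 15.7 ± 3.99 counts to 89.1 ± 9.50 in shBMAL1 (2.50, SE 0.35, adjusted p 1.17e-11). Its rise in shARNT (1.18, adjusted p 0.0274) was lost without shControl replicate 1 (1.02, adjusted p 0.133) or shARNT replicate 2 (1.05, adjusted p 0.166), and with a replicate block (1.20, adjusted p 0.104). It was higher in shBMAL1 than in shARNT by 1.32 (adjusted p 3.77e-05). C5, the first protein of the terminal pathway, rose by 0.89 in shBMAL1 (adjusted p 1.68e-17) and by 0.29 in shARNT (adjusted p 0.019), the latter not without shARNT replicate 2 (0.22, adjusted p 0.172). The knockdowns differed by 0.61 in C5 (adjusted p 5.29e-08), and SUSD4 was higher in shBMAL1 than in shARNT (adjusted p 5.88e-47). SUSD4, a membrane inhibitor of complement, went from 409 ± 51.9 to 1133 ± 65.0 counts in shBMAL1 (1.47, adjusted p 8.73e-39). It was not called in shARNT (−0.03, adjusted p 0.904), where its sign turned without shControl replicate 1 (0.08) or shARNT replicate 3 (0.03).

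C3AR1, the receptor for the C3a fragment, was the 1 gene of the 50 called lower in either knockdown. It had 508, 508 and 507 normalised read counts in shControl, 154, 259 and 233 in shARNT, and 220, 213 and 181 in shBMAL1. The log2 fold changes were −1.24 (SE 0.15, adjusted p 4.05e-14) and −1.31 (SE 0.13, adjusted p 1.02e-21), with no difference called between the knockdowns (−0.07, SE 0.19, adjusted p 0.834), where the sign turned without shARNT replicate 2 (0.08) or shBMAL1 replicate 3 (0.01). C3, the source of C3a, was higher in the same libraries.

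**Figure D4:**
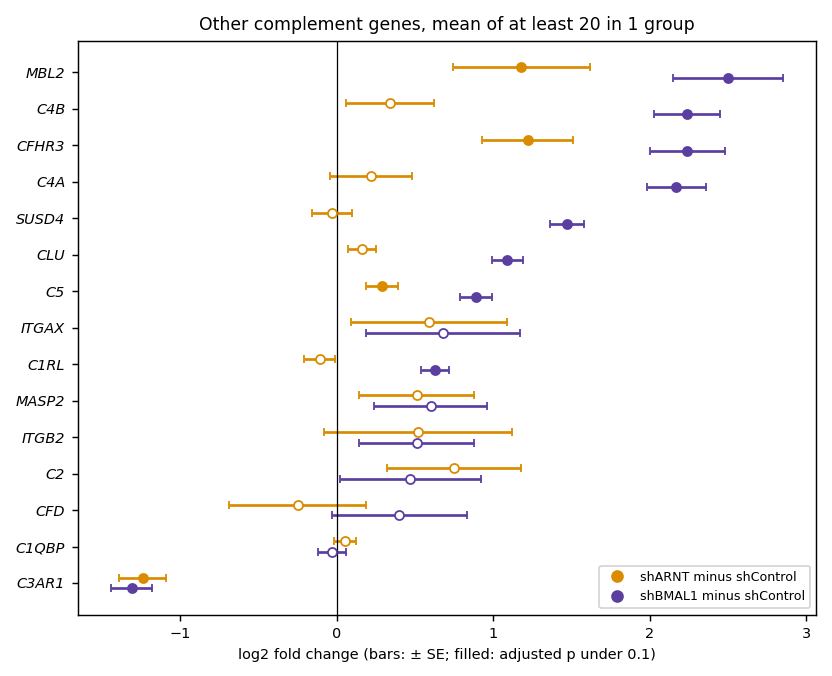
Log2 fold changes against shControl (x axis, points with ± SE) of 15 other complement genes whose mean reached 20 normalised read counts in 1 group or more. Filled points passed an adjusted p of 0.1. CFHR3 lies at 1.22 in shARNT and 2.24 in shBMAL1, and C3AR1 lies below −1 in both.

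**Figure D5:**
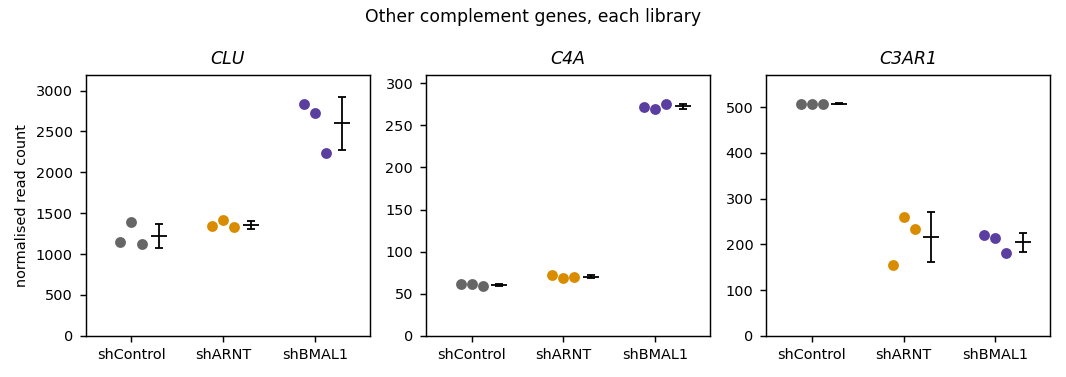
Normalised read counts (y axes, each from 0) of CLU, C4A and C3AR1 in each library, with the mean and SD of each group in black. CLU and C4A are high in shBMAL1 alone, and C3AR1 is low in both knockdowns.

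Since the liver makes most plasma complement, hepatocyte markers are given beside these values. ALB, TTR and APOA1 together summed to at most 12.1 normalised read counts in any library. SERPINA1, the remaining marker, also made by other epithelia, averaged 5560 ± 120 counts with shControl, 2489 ± 107 with shARNT and 11192 ± 1176 with shBMAL1 (SD, n = 3). It fell in shARNT (−1.16, adjusted p 9.03e-90) and rose in shBMAL1 (1.01, adjusted p 6.69e-37), while C3 was higher in both. The 3 fibroblast markers summed to 94 to 143 for shControl, 87.7 to 94.3 for shARNT and 194 to 235 for shBMAL1, mostly from LUM, with DCN at or near 0. Their part in the results was not tested.

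Neighbours were taken as protein-coding genes outside the 9 whose lowest coordinate came next before and after that of each of the 9 genes. Apart from LPCAT3 and C1RL these were 14. Of these 1 was higher and 1 lower of 7 tested in shARNT, and 2 were higher and 0 lower of 9 tested in shBMAL1, beside 35.4% and 36.8% of all genes called. GPR108, next to C3, was higher in both knockdowns (0.27, adjusted p 0.000458, and 0.39, adjusted p 0.000159), as C3 was. GPR108 and C3 overlap on the same strand with 0 shared exon bases. PLA2G12A, next to CFI, was higher in shBMAL1 (0.39, adjusted p 0.0505). That call was lost without shControl replicate 1 (adjusted p 0.134) or 3 (adjusted p 0.169), without shBMAL1 replicate 3 (adjusted p 0.21) and with a replicate block (adjusted p 0.161). It was not called in shARNT (−0.02, adjusted p 0.95), where the sign turned without shControl replicate 2 (0.01) or shARNT replicate 2 (0.06). UBE2L6, next to SERPING1, was lower in shARNT (−0.48, adjusted p 3.43e-07). By this rule the neighbours of CFB were ZBTB12 and NELFE, although C2 overlaps it and so lies closer. ZBTB12 and NELFE were called in neither knockdown in the fit used here, with 0.27 (adjusted p 0.135) and 0.09 (adjusted p 0.327) in shARNT and 0.15 (adjusted p 0.502) and 0.11 (adjusted p 0.299) in shBMAL1. With edgeR, ZBTB12 passed the threshold in shARNT (0.26, adjusted p 0.0761).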

How the data were processed

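RNA-seq of 9 libraries was analysed. The authors deposited expected counts (estimated reads per gene, linear scale). Their methods name SeqMan NGen with GRCh37 and ArrayStar, whereas the submitters' processing notes list STAR, DESeq2 and hg38, so the build behind the counts is uncertain. The table gives no coordinates. Gene positions here are GENCODE on GRCh37, and promoter windows are RefSeq on GRCh38.p14.

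The fill value 0.009 was set to 0, 53 duplicate rows were added to their namesakes, and fractional values (6.14% of the rest, none among the 9 genes) were rounded. All genes were fitted in DESeq2 version 1.42.0 (R 4.3.3), the tool and the false discovery rate of 0.1 that the study used, on the 6 libraries of each comparison (Wald test, two-sided, Benjamini-Hochberg adjustment over all genes tested). The alternatives were edgeR 4.0.16 (quasi-likelihood, TMM), TMM size factors, a filter of 10 counts in 3 libraries, an adjusted p of 0.05, a 1.5-fold minimum, all 9 libraries in 1 fit, a replicate block, and each library left out.

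Libraries of 1 group differed by more than sampling noise (chi-square per degree of freedom 7.6 to 17.6). The members and gene lists were chosen with earlier results of these data known. Named were all 9 members, the 10 other complement genes called with the largest change and a mean of at least 20 counts in 1 group (8 of them given, since some items are not reported here), C1RL and C2, neighbours of C1R, C1S and CFB, both targets, 9 transcription factors, and the 3 genes most like C1S and C3. VSIG4, GPR108, PLA2G12A, UBE2L6, PAX8, PAX2, CA9 and VIM were named after their values were seen. Normalised read counts use median-of-ratios size factors over all 9 libraries.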

Additional observations from a re-analysis of the deposited data

How the results depend on the processing

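Of the counts of called complement genes, the number among the 9 members in shARNT against shControl went from 5 to 3 with a 1.5-fold minimum, since C1R and CD55 changed by less. In shBMAL1 against shControl it went from 6 to 4, since C1S and CD46 changed by less. Between the knockdowns the call of CD46 was lost with that minimum. Leaving out 1 library gave 4 to 5 members in shARNT, 5 to 7 in shBMAL1 and 3 to 5 between the knockdowns. For the 50 other complement genes it gave 4 to 7, 11 to 12 and 10 to 11. Log2 fold changes of the 9 members under the alternatives kept direction and call in 292 cases, lost the call in 16, gained it in 9 and turned sign in 3, and those of the other named genes did so in 981, 52, 8 and 12. The sign turned for CFB in shARNT without shControl replicate 2 (0.19) or shARNT replicate 3 (0.09), in a range of −0.14 to 0.19, for CD59 in shBMAL1 without shBMAL1 replicate 1 (−0.0015, highest 0.12), for SUSD4 in shARNT without shControl replicate 1 (0.08) or shARNT replicate 3 (0.03, lowest −0.09), for LPCAT3 in shBMAL1 without shBMAL1 replicate 1 (−0.11, highest 0.10), for PLA2G12A in shARNT without shControl replicate 2 (0.01) or shARNT replicate 2 (0.06, lowest −0.08), for PAX8 in shARNT with TMM size factors (−0.0036) or without shControl replicate 2 (−0.03) or shARNT replicate 3 (−0.01, highest 0.04), and between the knockdowns for C3AR1 without shARNT replicate 2 (0.08) or shBMAL1 replicate 3 (0.01, lowest −0.27), for GPR108 without shBMAL1 replicate 1 (−0.00067, highest 0.22) and for NELFE without shARNT replicate 3 (−0.002, highest 0.03). None of these was called with all libraries, and the cause was not tested.

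Same-numbered libraries did not pair. The correlation of their deviations from the group means ran from −0.15 to 0.11, and the own number was the best match in 7 of 18 cases. With the replicate block, 5, 5 and 4 members and 5, 11 and 11 other complement genes were called in shARNT, in shBMAL1 and between the knockdowns, beside 5, 6 and 4 and 6, 12 and 11 without it. The calls of C1S in shBMAL1 (−0.52), of MBL2 in shARNT (1.20, adjusted p 0.104) and of PLA2G12A in shBMAL1 (0.38, adjusted p 0.161) were among those lost with it. SERPING1 had at most 10 reads in a library, and a change in it could not be judged at this depth.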

Other observations

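Transcription factors known to act on complement genes were listed as well, 9 in all. In shARNT 3 were higher and 2 lower, and in shBMAL1 3 were higher and 4 lower, beside 35.4% and 36.8% of all genes called. NFKBIZ, an inducible cofactor of NF-kB, rose from a mean of 2842 normalised read counts to 5259 in shARNT (0.89, DESeq2 adjusted p 6.15e-27) and 5974 in shBMAL1 (1.07, adjusted p 1.7e-35). CEBPD, an acute-phase activator, rose in both as well (0.54, adjusted p 0.00481, and 1.00, adjusted p 2.48e-09). CEBPB went opposite ways, with 0.49 in shARNT (adjusted p 0.00104) and −0.46 in shBMAL1 (adjusted p 0.0106). The second was lost without shControl replicate 3 (−0.30, adjusted p 0.18), and the counts of CEBPB were fractional in all libraries. NFKB1 fell in both (−0.30, adjusted p 1.2e-05, and −0.46, adjusted p 9.72e-09). IRF1 was lower by −0.14 in shARNT (adjusted p 0.0964) and −0.27 in shBMAL1 (adjusted p 0.00205). The first call failed in all fits with 1 library fewer but that without shControl replicate 3, with an adjusted p of 0.345 without shARNT replicate 3. It was also lost with the count filter, with all 9 libraries in 1 fit (adjusted p 0.128), with a replicate block (adjusted p 0.188) and at an adjusted p of 0.05.

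Among 12935 genes with a mean of at least 50 counts, those whose log2 levels followed C1S most closely over the 9 libraries were SOD2, TSC1 and UBE3C, with a Pearson r of 0.989, 0.986 and 0.985. SOD2, the mitochondrial superoxide dismutase, had means of 2991, 7409 and 2312 counts in the groups in the order shControl, shARNT and shBMAL1, and TSC1 had 1449, 1849 and 1398. For C3 the closest were SYNRG (0.987), IMPA2 (0.983) and E2F8 (0.983). The 9 points fall into 3 groups, and each is the best of many genes, so these values are a description only. Among the members, the r over the same 9 libraries, without SERPING1, ran from −0.89 for CFB with CD46 to 0.82 for CFB with CFI, and was 0.13 for C1R with C1S.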
